A study of Mus musculus with 8 samples.

Results

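The Ifi200 genes encode the PYHIN proteins, a mouse family of DNA-binding sensors that lie side by side on distal chromosome 1. Most PYHIN proteins join a pyrin domain, which recruits partner proteins, to 1 or more HIN domains, which grip double-stranded DNA. Aim2, the best known member, senses DNA in the cytosol and assembles an inflammasome through the adaptor Pycard (ASC) and Casp1, whereas Ifi204 is the mouse gene usually set beside human IFI16, a sensor that signals through STING to interferon. Many of the genes are induced by interferon in myeloid cells, and the cluster has long been studied in lupus because a susceptibility interval of lupus-prone strains covers it.

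Members were taken by symbol from a list of 10 (Ifi202b, Ifi203, Ifi204, Ifi205, Ifi207, Ifi209, Ifi213, Mndal, Pyhin1 and Aim2), of which 8 had a row among the 13786 genes of the count table. Ifi202b and Pyhin1 were not analysed here. RNA was sequenced from CD11c-positive splenocytes of 4 C57BL/6 control mice and 4 B6.SLE123 mice, which are C57BL/6 mice congenic for the Sle1, Sle2 and Sle3 lupus-susceptibility intervals. All 8 mice were untreated females, 7 weeks old, and each is 1 sample. The genotype field of the labels numbers the strain differently from mouse to mouse, so strain was taken from the sample names. Counts summed to 25761789 to 32931045 per C57BL/6 mouse and to 25563070 to 37367094 per B6.SLE123 mouse. Mice of a strain differed beyond sampling noise, with a chi-square per degree of freedom of 4.87 to 18.3 between any pair.

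Levels are given as CPM (read counts relative to the TMM-scaled library size), by mouse in the order 1 to 4. Log2 fold changes are B6.SLE123 over C57BL/6, fitted with edgeR (quasi-likelihood F test, p-values adjusted by Benjamini-Hochberg over all genes), and a gene is called at an adjusted p below 0.05. In bulk RNA, fewer cells that express a gene and less RNA per cell cannot be told apart. Reads of both strains were aligned to mm10, which is C57BL/6 sequence. The cluster lies where the B6.SLE123 genome can carry DNA of another strain, so a different amount of transcript and a different share of reads assigned to a gene cannot be told apart. The library kit was stranded, but it is not stated whether counting used the strand.

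The members span 680.9 kb of chromosome 1 (mm10) and arose by gene duplication, and most of them resemble each other in the sequence just before their transcription starts. RefSeq promoter windows (GRCm38.p6, 250 bases before to 50 bases after the start) were matched for 7 of the 8 members; no window was matched for Ifi204. The core of the interferon-stimulated response element (ISRE), the letters GAAA, any 2 bases and GAAA searched on both strands, occurred in 3.44% of 32851 windows and in those of 5 of the 7 members. It was also found for the other PYHIN genes Ifi206, Ifi208, Ifi211 and Ifi214, so that 9 of 11 genes held it. The stretches below are shown to let the called member Ifi205 be read beside other genes of the cluster. Of these, Ifi211 was also called higher, and the others were not called. All letters shown are those of the reference genome, which is sequence of the control strain. B6.SLE123 mice can carry DNA of another strain here, and their letters were not read. A link between the letters and the calls was not tested. Each stretch is 60 bases, 5′ to 3′ on the strand of the gene, with the 10 letters at the ISRE position in capitals.
Ifi205, chr1:174031860-174031919, minus strand: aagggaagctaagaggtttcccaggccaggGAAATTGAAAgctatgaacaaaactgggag
Ifi211, chr1:173913054-173913113, minus strand: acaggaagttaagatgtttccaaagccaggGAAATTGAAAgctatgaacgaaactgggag
Ifi207, chr1:173741821-173741880, minus strand: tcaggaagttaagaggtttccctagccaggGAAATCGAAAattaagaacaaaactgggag
Mndal, chr1:173880194-173880253, minus strand: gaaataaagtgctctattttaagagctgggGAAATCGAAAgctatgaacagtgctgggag
Ifi203, chr1:173942498-173942557, minus strand: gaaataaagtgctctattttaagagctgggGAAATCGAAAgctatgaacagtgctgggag
Ifi213, chr1:173599316-173599375, minus strand: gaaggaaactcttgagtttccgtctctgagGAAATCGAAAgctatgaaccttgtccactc
Ifi209, chr1:173630750-173630809, plus strand: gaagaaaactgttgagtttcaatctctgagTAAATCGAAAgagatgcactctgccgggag

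The form GAAATCGAAA was picked because it was the commonest at the ISRE core in the cluster's own windows. Its number in the cluster thus follows from that choice and is no test. It stood in 16 of the 32851 windows (0.0487%), and 7 of those 16 belonged to the cluster (Ifi206, Ifi214, Ifi213, Ifi208, Ifi207, Mndal and Ifi203). The other 9 belonged to Adcyap1, Ddx58 (a cytosolic RNA sensor), Gm26797, Gm31431, Parp11, Pnrc1, Ripk1 (a kinase of cell death signalling), Serpinb6a and Six3os1. Counted from 1 at the first capital, Ifi205 and Ifi211 differed from this form by C6T, which keeps the ISRE core, and Ifi209 by G1T, which does not. Letters at most 1 base from the form occurred in 1.38% of windows, a scan chosen after the values were seen. Mndal and Ifi203 were identical over 60 of 60 bases, Ifi205 and Ifi211 over 53, and Ifi205 and Ifi207 over 50, whereas Ifi205 shared 37 bases with Mndal and Ifi203 and 33 with Ifi213 and Ifi209. The stretches were picked by their likeness to the form and lined up on it, so the capitals match largely by that choice. The capitals began 134 bases before the RefSeq start in Ifi205, against 35 in Ifi203, 36 in Mndal, 37 in Ifi211, 41 in Ifi207, 73 in Ifi213 and 79 in Ifi209. By the gene coordinates given below, the stretches of Ifi203 and Mndal lie inside the gene, and Ifi205, Ifi207 and Ifi209 have starts well away from the RefSeq ones. These distances, and the place of Ifi205 among them, therefore depend on the annotation. On the other strand, a further ISRE core lay 23 bases after the start in Ifi205 and 54 bases before a second annotated start in Mndal. The gamma-activated site core TTCNNNGAA, found in 8.3% of all windows on either strand, was in none of the 11. A PU.1 core, GAGGAAGT, found in 3.2% of all windows, was in that of Aim2 only, 113 bases before its start. A match is a description of letters, and binding was not measured here.

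Members of the family moved in opposite directions in B6.SLE123 mice. Ifi205 was higher and Ifi204 was lower, each by more than 2-fold, and the other 6 members did not pass the test. So 2 of 8 members were called (25.0%), against 53.4% of all genes, 1 of 8 higher against 26.7% and 1 of 8 lower against 26.6%. Both passed the more than 2-fold requirement that the study set for differential expression, which 11.1% of all genes passed (2.76% higher and 8.29% lower). No overlap between the strains was seen for 3 members (Ifi204, Ifi205 and Ifi213), against 48.9% of all genes. The log2 fold change was below 0 for 6 of 8 members, with a median of -0.20 over the members and -0.0019 over all genes, and the median absolute log2 fold change was 0.20 against 0.25. By these counts the members did not stand out from the table as a list, and the difference lay in a pair of genes with opposite signs. The number called lower rested on the setting: it was 4 without B6.SLE123 mouse 2 or without B6.SLE123 mouse 3, and 2 without B6.SLE123 mouse 1 or without C57BL/6 mouse 4.

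**Figure D1:**
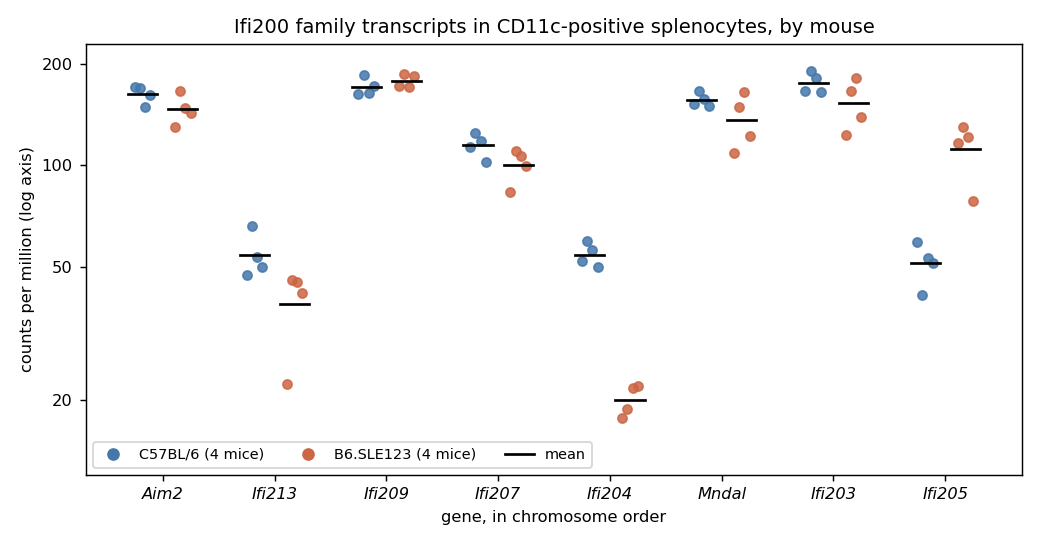
CPM of the 8 family members (log axis), in chromosome order, with 1 point per mouse and a bar at the mean of each strain (4 mice each). The strains are apart for Ifi204 (means 54.3 and 20.1 CPM) and, in the other direction, for Ifi205 (51.2 and 111.7 CPM), and 1 B6.SLE123 mouse is far below the rest for Ifi213.

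Aim2 (ENSMUSG00000037860.15, chr1:173350879-173466040, plus strand) stood at 170.7, 170.1, 149.8 and 161.7 CPM in C57BL/6 mice and at 130.4, 166.4, 148.2 and 143.4 CPM in B6.SLE123 mice. The strains overlapped, with C57BL/6 mice 3 and 4 inside the B6.SLE123 range and C57BL/6 mice 1 and 2 just above it. The means were 163.1 ± 9.77 and 147.1 ± 14.9 CPM (SD, n = 4 each), a log2 fold change of -0.15 ± 0.0714 (SE) with a 95% interval of -0.31 to 0.0096 and an adjusted p of 0.103 by edgeR. The interval leaves room for a level between 0.81 and 1.01 times that of C57BL/6 mice. Without B6.SLE123 mouse 2, the highest of its strain, the log2 fold change was -0.22 with an adjusted p of 0.0127. Aim2 lies across Cadm3 on the opposite strand, but they share 0 exon bases, and none of its 75-base transcript words occurs in another gene.

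In a general list of inflammasome genes, which holds partners of Aim2 as well as sensors of other inflammasomes, all calls were in 1 direction. Of 18 inflammasome genes, 13 were lower in B6.SLE123 mice and 0 were higher (72.2% called, median log2 fold change -0.35, against 53.4% and -0.0019 for all genes). Pycard, the adaptor that Aim2 binds, stood at 28.0 ± 1.73 and 26.3 ± 0.503 CPM and did not pass (adjusted p = 0.178 by edgeR). Casp1, the protease recruited by Pycard, was lower, at 79.2 ± 4.37 against 57.3 ± 5.30 CPM (log2 fold change -0.47, adjusted p = 1.68e-04). The cytokines that Casp1 matures fell furthest. Il18 went from 96.1 ± 8.30 to 25.8 ± 3.50 CPM (-1.90, adjusted p = 1.97e-07 by edgeR) and Il1b from 151.6 ± 23.4 to 68.0 ± 11.5 CPM (-1.16, adjusted p = 2.40e-05). Naip5 and Naip2, sensors of bacterial proteins, were lower by 0.55 and 0.34 on the log2 scale (adjusted p = 1.94e-05 and 1.26e-04 by edgeR). Summed over the list, the level was 1978 to 2090 CPM in C57BL/6 mice and 1470 to 1614 CPM in B6.SLE123 mice. Red pulp macrophage markers were lower in the same mice (summed levels of 12080 to 15270 and 1716 to 3435 CPM), and their part in the inflammasome values was not tested.

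Ifi204 (ENSMUSG00000073489.6, chr1:173747293-173766943, minus strand), whose product p204 binds DNA in nucleus and cytosol, was lower in B6.SLE123 mice. It stood at 52.1, 59.4, 56.1 and 49.8 CPM in C57BL/6 mice and at 17.7, 18.8, 21.8 and 22.04 CPM in B6.SLE123 mice. The highest B6.SLE123 mouse was well below the lowest C57BL/6 mouse. The means were 54.3 ± 4.28 and 20.1 ± 2.16 CPM (SD, n = 4 each), which is 2.71-fold lower, with a log2 fold change of -1.44 ± 0.0819 (SE), a 95% interval of -1.62 to -1.26 and an adjusted p of 4.28e-07 by edgeR. The counts behind these levels were large, at 1376 in C57BL/6 mouse 1 and 560 in B6.SLE123 mouse 1. Of the 75-base words in its annotated transcripts, 13.2% also occur in another gene, chiefly Ifi211 (11.3%). Summed with Ifi211, the level was 70.4 against 41.6 CPM (log2 ratio of means -0.76), with no overlap between the strains. This sum was chosen after the values were seen. Ifi211 averaged only 16.1 and 21.5 CPM, too little to undo the difference, so the sum is no test of how reads were assigned.

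Ifi205 (ENSMUSG00000054203.7, chr1:174011998-174031810, minus strand), the gene at the far end of the cluster, was higher in B6.SLE123 mice. Its levels were 59.1, 41.1, 53.0 and 51.4 CPM in C57BL/6 mice and 116.4, 130.3, 121.4 and 78.5 CPM in B6.SLE123 mice. The strains did not overlap, and B6.SLE123 mouse 4 was the closest to the C57BL/6 range. The means were 51.2 ± 7.48 and 111.7 ± 22.8 CPM (SD, n = 4 each), a 2.19-fold difference, with a log2 fold change of 1.13 ± 0.148 (SE), a 95% interval of 0.80 to 1.45 and an adjusted p of 8.94e-05 by edgeR. Its transcripts share 16.7% of their 75-base words with Ifi211. Ifi205 and Ifi211 together stood at 67.2 and 133.2 CPM (log2 ratio of means 0.99), again without overlap. With Ifi211 at so low a level, this sum is no test either.

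The ratio of these genes, chosen because they were the called members, describes the same calls by mouse and adds no test. Ifi205 over Ifi204 was 1.14, 0.692, 0.945 and 1.03 in the C57BL/6 mice and 6.57, 6.91, 5.57 and 3.56 in the B6.SLE123 mice. This ratio of counts, not scaled by length, was near 1 in the control strain and higher in every B6.SLE123 mouse. Both calls held in all 6 other settings and in all 8 fits that left out a mouse, with log2 fold changes of -1.49 to -1.38 for Ifi204 and 1.04 to 1.25 for Ifi205 over the fits without a mouse.

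Ifi203 and Mndal, nuclear members that lie on either side of Ifi211 and have the identical promoter stretch shown above, kept a near-constant ratio across mice and did not pass. Ifi203 (ENSMUSG00000039997.16, chr1:173920407-173942672, minus strand) was at 166.1, 191.0, 181.8 and 165.0 CPM in C57BL/6 mice and at 122.9, 167.1, 182.3 and 139.5 CPM in B6.SLE123 mice. Mndal (ENSMUSG00000090272.9, chr1:173849126-173880881, minus strand) was at 152.1, 166.2, 157.3 and 150.6 CPM in C57BL/6 mice and at 108.8, 149.2, 165.7 and 122.2 CPM in B6.SLE123 mice. In both genes B6.SLE123 mouse 3 was as high as the control strain and mouse 1 was the lowest of all 8. The log2 fold change was -0.20 ± 0.108 (SE) for Ifi203 (95% interval -0.44 to 0.0356, adjusted p = 0.137 by edgeR) and -0.20 ± 0.110 for Mndal (-0.44 to 0.0452, adjusted p = 0.153). Without B6.SLE123 mouse 3 both were called lower, at -0.30 with adjusted p of 0.0250 and 0.0189. The ratio of Ifi203 to Mndal was between 1.09 and 1.16 in C57BL/6 mice and between 1.10 and 1.14 in B6.SLE123 mice. The annotation joins them in part: in GENCODE M21 Mndal ends at 173942491 and shares 37 exon bases with Ifi203, and 118 of its exon bases are shared with the pseudogene Gm38050. Of 75-base words, 5.71% of those of Ifi203 and 11.1% of those of Mndal occur in another gene.

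Ifi213, Ifi207 and Ifi209 are PYHIN genes whose products are less studied. Ifi213 (ENSMUSG00000073491.11, chr1:173566283-173599274, minus strand) was at 47.2, 66.2, 53.3 and 49.9 CPM in C57BL/6 mice and at 22.4, 45.6, 45.0 and 41.7 CPM in B6.SLE123 mice. The strains did not overlap, although the gap between 47.2 and 45.6 CPM was narrow, and B6.SLE123 mouse 1 was far below the others. The log2 fold change was -0.48 ± 0.192 (SE; 95% interval -0.91 to -0.0619), with an adjusted p of 0.0527 by edgeR, just above the threshold of 0.05. Without B6.SLE123 mouse 1 the log2 fold change was nearer 0, at -0.30, but the adjusted p was 0.0352. Of its 75-base words 8.07% are shared, mostly with Ifi208, and the sum of Ifi213 and Ifi208 was 59.4 and 43.6 CPM in the strains, without overlap. Ifi208 averaged only 5.29 and 4.96 CPM, too little to undo the difference, so this sum is no test of how reads were assigned.

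Ifi207 (ENSMUSG00000073490.11, chr1:173723427-173741747, minus strand) was at 113.7, 124.6, 118.5 and 102.4 CPM in C57BL/6 mice and at 83.6, 110.5, 106.8 and 99.99 CPM in B6.SLE123 mice. The strains overlapped, and the log2 fold change of -0.20 ± 0.0862 (SE; 95% interval -0.39 to -0.0049) had an adjusted p of 0.0782 by edgeR. It passed without C57BL/6 mouse 4 (adjusted p = 0.0327) and without B6.SLE123 mouse 2 (0.0329). Ifi209 (ENSMUSG00000043263.13, chr1:173630917-173647928, plus strand) had the narrowest spread of the members in B6.SLE123 mice, at 163.3, 185.8, 164.0 and 172.2 CPM in C57BL/6 mice and at 172.3, 186.6, 171.8 and 185.2 CPM in B6.SLE123 mice. Its log2 fold change was 0.06 ± 0.0521 (SE), and the 95% interval of -0.0519 to 0.18 bounds a difference between 0.965 and 1.13 times. It shares 23.1% of its 75-base words with Ifi214, which was scarce (below 4 CPM on average in either strain).

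**Figure D2:**
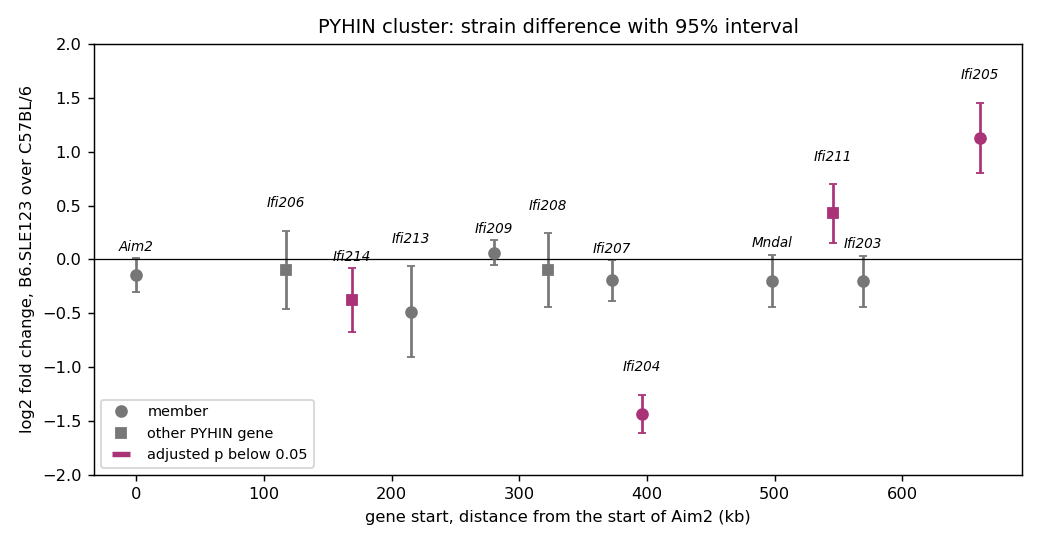
Log2 fold change of the 12 PYHIN genes, B6.SLE123 over C57BL/6, with 95% intervals, against the distance of each gene's start from that of Aim2 in kb. Circles are the 8 members and squares 4 other PYHIN genes, with adjusted p below 0.05 in purple; Ifi204 (-1.44) and Ifi205 (1.13) lie far from the rest, which fall between -0.48 and 0.43.

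The 4 other PYHIN genes of the table were expressed at lower levels. Ifi211 (ENSMUSG00000026536.9, chr1:173896345-173913046) was higher in B6.SLE123 mice, at 16.1 ± 1.05 against 21.5 ± 4.16 CPM (log2 fold change 0.43 ± 0.123, adjusted p = 0.0131 by edgeR). Of its 75-base words 63.6% occur in another gene, 40.6% in Ifi205 and 23.0% in Ifi204, so its value is uncertain. Ifi214 was lower, at 3.58 ± 0.406 against 2.75 ± 0.296 CPM (log2 fold change -0.38, adjusted p = 0.0333 by edgeR), and lost the call without C57BL/6 mouse 2 (adjusted p = 0.0963), B6.SLE123 mouse 1 (0.0711) or B6.SLE123 mouse 3 (0.0836). Ifi206 and Ifi208 did not pass, with log2 fold changes of -0.10 and -0.10 and adjusted p of 0.646 and 0.620 by edgeR. Their log2 fold changes turned to 0.018 without C57BL/6 mouse 2 (Ifi206) and to 0.015 without C57BL/6 mouse 3 (Ifi208). Over all 12 genes, 4 were called (33.3%, against 53.4% of all genes), 2 in each direction. The pyrin-only genes Pydc3, Pydc4 and Pydc5 were not analysed here.

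Levels of different genes were compared as CPM per kb of annotated exon. In C57BL/6 mice the order was Ifi209 (48.3 CPM per kb), Aim2 (46.6), Mndal (43.6), Ifi207 (33.6), Ifi203 (26.2), Ifi204 (15.3), Ifi205 (12.3) and Ifi213 (7.92). Ifi209 overlapped Aim2, Aim2 overlapped Mndal and Ifi204 overlapped Ifi205 across mice, while the other neighbours in the order did not overlap. In B6.SLE123 mice the order began in the same way, with Ifi209 (50.5), Aim2 (42.0), Mndal (38.0) and Ifi207 (29.3). Ifi205 (26.7) then stood above Ifi203 (22.8), and Ifi213 (5.65) and Ifi204 (5.65) were last. In that strain the values of neighbours did not overlap between Ifi209 and Aim2 and between Ifi203 and Ifi213, and overlapped elsewhere. Ifi205 thus stood just below Ifi204 in C57BL/6 mice and well above it in B6.SLE123 mice, while the 4 most abundant members kept their places.

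The family as a whole differed little. The summed level of the 8 members was 941.3 ± 43.99 CPM in C57BL/6 mice and 886.2 ± 98.5 CPM in B6.SLE123 mice (SD, n = 4 each), with ranges of 902.9 to 1004 and 774.5 to 974.6 CPM that overlapped. Of the members' summed counts, Ifi205 made up 6.40%, 4.09%, 5.67% and 5.69% in the C57BL/6 mice and 15.0%, 13.4%, 12.6% and 9.43% in the B6.SLE123 mice. Its mean share was 7.15 percentage points higher in B6.SLE123 mice. Ifi204 made up 5.77% ± 0.233 and 2.28% ± 0.292, and Ifi213 5.73% ± 0.625 and 4.31% ± 0.958, without overlap in either. The shares of the remaining 5 members overlapped, with Ifi203, Ifi209, Aim2 and Mndal each between 15.3% and 20.4% on average. Shares add to a fixed total, so a rise in 1 member lowers the others.

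**Figure D3:**
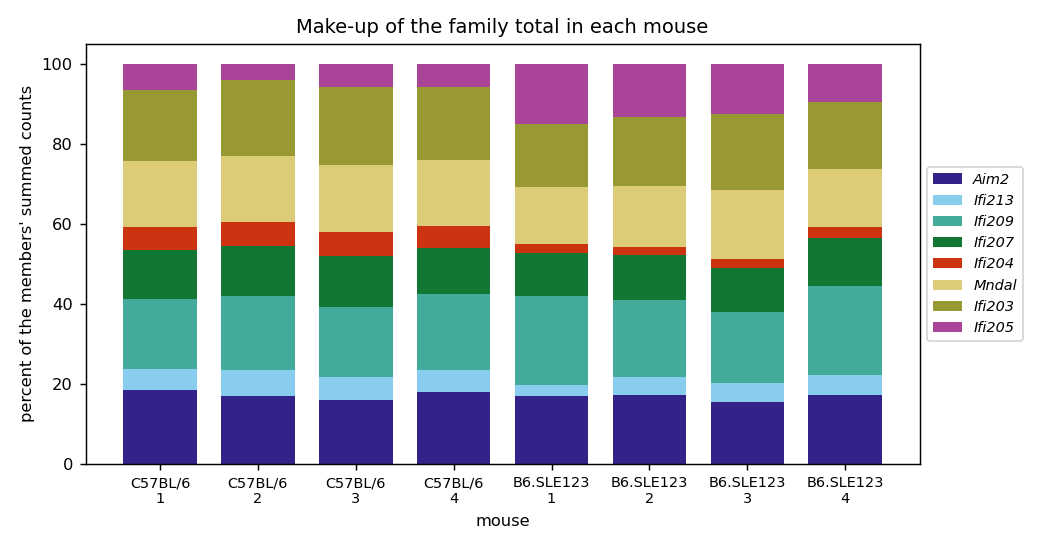
Share of each member in the summed counts of the 8 members (percent), with 1 stacked bar per mouse. The top segment, Ifi205, is between 4.09% and 6.40% in the C57BL/6 mice and between 9.43% and 15.0% in the B6.SLE123 mice, and the Ifi204 segment is thinner in all 4 B6.SLE123 mice.

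The members also varied more among B6.SLE123 mice. The SD of log2 CPM was larger in that strain for 7 of 8 members, with Ifi209 the exception, against 59.0% of all genes. B6.SLE123 mouse 1 was the lowest of its strain for 6 of 8 members and mouse 2 the highest for 5. In C57BL/6 mice, mouse 2 was the highest for 6 members and mouse 4 the lowest for 4. B6.SLE123 mouse 1 was thus low for most of the family at once and yet was not low for Ifi205. Since members moved together by mouse in part, the 7 larger SDs are not separate results.

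Interferon signalling and its targets were read beside the family, since most members are interferon-inducible. Of 36 such genes, 2 were higher and 12 lower in B6.SLE123 mice (38.9% called, median log2 fold change -0.08), below the 53.4% of all genes. Summed over the list, the level was 3414, 3849, 3603 and 3572 CPM in C57BL/6 mice and 2972, 3672, 3459 and 3436 CPM in B6.SLE123 mice. The mouse lowest for most members, B6.SLE123 mouse 1, was the lowest here as well, and mouse 2 of each strain was the highest. The part of the interferon response in the members' values was not tested. Ifnar2, a chain of the type I interferon receptor, was lower (log2 fold change -0.40, adjusted p = 2.55e-05 by edgeR), and Ifnar1, the other chain, did not pass (-0.09, adjusted p = 0.100). Irf7, which amplifies interferon production, was lower at -0.44 (adjusted p = 0.0121 by edgeR). The interferon-induced genes Rtp4 and Cmpk2 were lower by 0.75 and 0.64 on the log2 scale (adjusted p = 0.00156 and 3.66e-04 by edgeR), while Oasl1, of the oligoadenylate synthetase family, was higher by 0.61 (adjusted p = 0.00288) and Tyk2, a kinase of the receptor, was higher by 0.15 (adjusted p = 0.0282).

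Other sensors and effectors of cytosolic DNA changed in both directions and by less than Ifi204 and Ifi205. Of 27 listed genes, 12 were higher and 6 lower in B6.SLE123 mice (66.7% called, against 53.4% of all genes, of which 26.7% were higher and 26.6% lower; median log2 fold change 0.12), and 0 were both called and more than 2-fold changed. Cgas, which makes the second messenger that opens STING, was higher, at 27.5 ± 2.01 against 36.6 ± 1.48 CPM (log2 fold change 0.42, adjusted p = 1.81e-04 by edgeR). Tmem173, which encodes STING, did not pass, at 105.3 ± 3.93 and 114.3 ± 10.2 CPM (adjusted p = 0.130). Irf3, the transcription factor that STING activates, was lower, at 111.2 ± 3.99 against 70.7 ± 3.65 CPM (-0.65, adjusted p = 1.57e-06 by edgeR). The DNA repair genes Rad50 and Prkdc were higher by 0.53 and 0.42 on the log2 scale, and the helicase gene Dhx9 by 0.36 (adjusted p = 6.84e-06, 7.16e-05 and 3.70e-05 by edgeR). Zbp1, a sensor of left-handed nucleic acid, was higher at 0.47 (adjusted p = 0.0264 by edgeR) with overlapping mice, and Tlr9, the endosomal DNA receptor, was higher at 0.20 (adjusted p = 0.00450).

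**Figure D4:**
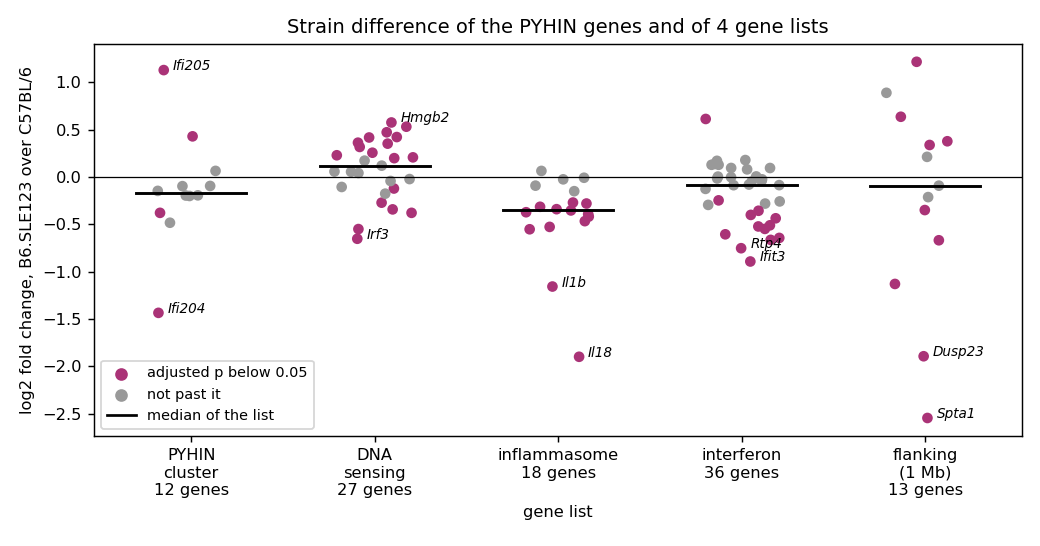
Log2 fold change (B6.SLE123 over C57BL/6) of the 12 PYHIN genes and of the genes of 4 lists, with 1 point per gene, called genes in purple and a bar at the list's median. The inflammasome list lies mostly below 0 (median -0.35), the DNA sensing list around 0.12, and Ifi204 and Ifi205 lie further from 0 than any gene of the DNA sensing and interferon lists.

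The genes around the cluster differed at least as often as the members. Within 1 Mb of either end, 13 genes that are no PYHIN gene were in the table, and 4 were higher and 5 lower in B6.SLE123 mice (69.2% called, against 53.4% of all genes), 4 of them by more than 2-fold (11.1% of all genes). Within 3 Mb, 50 of 72 genes were called (69.4%). The nearest gene before the cluster was Cadm3, an adhesion molecule that lies across Aim2 on the other strand, at 124.6 ± 10.8 against 161.7 ± 10.1 CPM (log2 fold change 0.38, adjusted p = 7.63e-04 by edgeR). Olfr433, an olfactory receptor gene and the nearest one after it, was scarce and higher, at 1.40 ± 0.469 against 3.24 ± 0.375 CPM (1.22, adjusted p = 6.54e-04). Of the others, the phosphatase gene Dusp23 was lower by 1.89 and Fcrl6 by 1.13 on the log2 scale, Slamf8 was lower by 0.35, and Tagln2 was higher by 0.34 (adjusted p of 6.72e-07, 5.07e-04, 5.17e-04 and 2.37e-04 by edgeR). When library sizes were taken without the cluster and its flanks, the log2 fold changes of Ifi204 and Ifi205 were -1.44 and 1.13.

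Marker genes of several cell types differed between the strains as well, and the numbers of these cells were not measured here. All 6 dendritic cell markers, Itgax (CD11c) among them, were detected and higher in B6.SLE123 mice, with summed levels of 17420 to 20330 CPM in C57BL/6 mice and 21480 to 22330 CPM in B6.SLE123 mice. Beside these and the following marker counts, 53.4% of all genes were called, 26.7% higher and 26.6% lower. All 10 red pulp macrophage markers were lower, with a median log2 fold change of -2.45. Their summed level was 13300, 12080, 15270 and 13160 CPM in C57BL/6 mice and 2238, 1716, 2977 and 3435 CPM in B6.SLE123 mice. Ifi204 was lower in the same 4 mice. Within the strains, C57BL/6 mouse 2 had the lowest macrophage sum but the highest Ifi204, and B6.SLE123 mouse 4 was the highest of its strain in both. Of 7 markers of type 1 conventional dendritic cells, 5 were higher and 1 lower, and their sum was 1589, 1292, 1595 and 1431 CPM in C57BL/6 mice and 2219, 2549, 2062 and 1631 CPM in B6.SLE123 mice. The mouse with the lowest Ifi205 in each strain, C57BL/6 mouse 2 and B6.SLE123 mouse 4, was also the lowest in that sum, and B6.SLE123 mouse 2 was the highest in both. All 3 marginal zone macrophage markers (summed levels of 167.5 to 202.4 and 34.5 to 62.6 CPM), 5 of 6 B cell markers (449.4 to 537.5 and 300.9 to 384.2 CPM) and 5 of 6 erythroid markers (51.4 to 216.0 and 4.74 to 32.0 CPM) were lower. Of 7 monocyte markers 3 were lower (Nr4a1, Fcgr4 and Vcan), while Ly6c2, Ccr2, Cx3cr1 and F13a1 did not pass. Summed over all 7, the levels were 461.4 to 526.9 and 246.5 to 309.2 CPM. Most of that gap lay in Nr4a1 (means of 287.8 and 156.9 CPM) and Fcgr4 (88.1 and 23.5 CPM). No marker was at 0 in every mouse, and the part of these cells in the levels of Ifi204, Ifi205 and Ifi213 was not tested.

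The genes most like a member over the 8 mice were found by the mean absolute difference of centred log2 CPM. For Ifi204 they were Hsf4 (0.059), Rwdd3 (0.079) and Atp13a2 (0.080), against a median of 0.722 over all genes. For Ifi205 they were Gcsam (0.065), Notch4 (0.079) and Naaa (0.084), against 0.569. For Ifi213 they were the interferon-induced genes Oas2 (0.072) and Xaf1 (0.087), followed by Dnajb7 (0.121), against 0.344. None of these lies on chromosome 1. For Ifi204 and Ifi205 the likeness follows mainly the difference between the strains, since their neighbours had log2 fold changes of -1.59 to -1.39 and of 1.01 to 1.06. Oas2 and Xaf1 had -0.55 and -0.51, beside -0.48 for Ifi213.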

How the data were processed

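RNA of CD11c-positive splenocytes from 8 mice was measured. In the authors' hands, cutadapt trimmed the reads, STAR placed them on mm10 and featureCounts assigned them to genes, with versions not given in the sources used here, and the deposited counts are raw. The table holds 13786 protein-coding genes, each with a larger strain median of at least 5 counts. It also holds the authors' DESeq2 comparison: a mean normalized signal, a log2 fold change with its error, a test score, p-values and a fold ratio. Those deposited columns were not used.

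Strains were compared on TMM-scaled counts in edgeR 4.0.16 (R 4.3.3; quasi-likelihood F test, 4 mice against 4, no filter), with Benjamini-Hochberg adjustment over all genes. The strain labels do not say that mice are from separate litters, so p-values measure the spread between these mice. SE and 95% intervals come from the same fit, and log2 CPM uses a prior count of 2. The fit was tested on simulated data: among 13786 genes, 200 had been altered, and it found 89.6% of those altered at least 2-fold and 72.7% of the 1.5-fold ones, with 6 false among 174 calls. The simulated counts took their spread from the same fit, and far fewer genes were altered than the 53.4% called between the strains. These rates therefore need not hold for the real data. Exon lengths, overlaps and 75-base words shared between transcripts came from GENCODE M21, in which 13663 genes had the table's coordinates. Symbols were written as dates for 21 genes and were left as given. Promoters came from RefSeq (GRCm38.p6).

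Members and lists were chosen with earlier results of these data known. All members were named, as were other PYHIN genes, the 4 genes with the smallest adjusted p of each pathway list and of the flanks, the nearest flanking genes, fixed sensors and adaptors (Cgas, Tmem173, Tlr9, Zbp1, Pycard, Casp1, Il1b, Il18, Irf7, Ifnar1 and Ifnar2; 1 further gene is not reported here), and the 3 genes nearest to the 3 members with the largest change. Tyk2 was named as 1 of 2 interferon list genes called higher. Marker lists also covered type 2 conventional dendritic cells (1 of 6 lower), plasmacytoid dendritic cells (2 higher and 2 lower of 6), neutrophils (2 higher and 1 lower of 5), plasma cells (2 higher and 2 lower of 5), T cells (2 higher and 1 lower of 6) and NK cells (1 of 5 lower). These lists are short, and over all genes 26.7% were higher and 26.6% lower. Alternatives were relative log expression factors, a filter of 10 counts in each mouse, a block for the replicate number, scaling without the cluster and its flanks, a 3 Mb window, DESeq2 1.42.0, limma-voom (limma 3.58.1) and each mouse left out.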

Additional observations from a re-analysis of the deposited data

Results flagged for a closer look

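In 3 of 30 groups of 4 mice tested by Dixon's criterion (the log2 CPM of 12 PYHIN genes and the summed levels of the 3 pathway lists, in each strain), 1 mouse stood apart from the other 3. Chance gives about 1 in 20. Ifi213 was at a log2 CPM of 4.49 in B6.SLE123 mouse 1, against a strain median of 5.44. Ifi206 was at 3.74 in the same mouse, against a median of 4.43. Ifi214 was at 2.09 in C57BL/6 mouse 2, against a median of 1.79. The cause was not tested.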

How the results depend on the processing

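Of the results that answer a comparison, 113 of 121 kept their direction and stayed within 1.5 times their value under the alternatives, and 8 moved. The number of members called lower, 1 in the report, was 2 when each mouse needed 10 counts (12053 genes tested), 2 by limma-voom and 5 with the replicate number as a block. It was 1 to 4 when a mouse was left out. The flanking genes called rose from 9 to 50 with the 3 Mb window, which holds more genes. Members called higher stayed at 1 and those more than 2-fold changed at 2 under all settings and without any mouse. Without a mouse, 6496 to 7013 of all genes, 14 to 17 of the DNA sensing list, 12 to 13 of the inflammasome list, 12 to 17 of the interferon list and 9 to 11 flanking genes were called, and the Ifi205 share difference was 6.34 to 8.20 percentage points. Under the block, Ifi213 (-0.52, adjusted p = 0.00641 by edgeR), Ifi207 (-0.20, 0.0283), Ifi203 (-0.22, 0.0230) and Mndal (-0.22, 0.0495) also passed. Replicate numbers did not pair the mice: same-numbered mice correlated at 0.024, 0.071, -0.029 and 0.115 in their deviations from the strain means, and only numbers 2 and 4 correlated best with their own number. Of single genes, 147 of 168 values kept direction and call, 14 gained a call and 3 lost it. The log2 fold change of Ifi206 turned to 0.018 without C57BL/6 mouse 2 and to 0.049 without B6.SLE123 mouse 1, and that of Ifi208 to 0.015 without C57BL/6 mouse 3 and to 0.0 without B6.SLE123 mouse 1, within ranges of -0.18 to 0.049 and -0.197 to 0.015 over all 8 mice left out. Aim2 passed without B6.SLE123 mouse 2 only. The median of all genes stayed between -0.0114 and 0.0005. The cause of these moves was not tested.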
